A study of Brassica oleracea var. capitata with 6 samples.

Results

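The genes described here are the 3 cabbage genes *Bol018504*, *Bol025251* and *Bol025577*, which the study annotates as homologs of ECERIFERUM1 (CER1). They are 3 of 31497 genes in the deposited table and were taken by their identifiers. All 3 passed the filter on low values, a mean FPKM of at least 0.1 over the 6 libraries, but *Bol025577* did so only through its *nwgl* libraries. Leaves were collected at the harvesting stage from wild-type cabbage and from the glossy mutant *nwgl*, which was derived from an inbred line, while the source line of the wild-type is not given in the sources used here. RNA-seq libraries were made from 3 biological replicates of each genotype, 6 libraries in all, and the genotype is the only labelled difference between them. Levels are in FPKM, in which fragments are divided by transcript length and by the library's mapped fragments, so that copies of different length can be compared and summed. The table gives identifiers without gene names. The name CER1 is therefore the study's, and neither it nor the leaf tissue was checked against annotated marker genes here.

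Cuticular wax is made in epidermal cells from very long chain fatty acyl-CoAs, which enter either an alkane-forming or an alcohol-forming branch. In Arabidopsis, CER1 works with CER3 and cytochrome b5 to form very long chain alkanes, the compounds from which secondary alcohols and ketones of the wax are then made, and *cer1* mutants have glossy stems. The alcohol-forming branch begins with fatty acyl-CoA reductases such as CER4.

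*Bol018504* lies near the end of chromosome C08 (Bolbase V1.0, forward strand, 41482385 to 41485735), among the genes of the interval to which the study mapped *NWGL*. The CER1-like gene *Bol018503* on the same strand ends 2868 bp before it and has no row in the table, so its expression was not analysed here. Positions of *Bol025251* and *Bol025577* are not given in the sources used here. The study singled out all 3 genes as differentially expressed in these same libraries, so their tests between genotypes are not independent evidence.

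Among these 3 copies, *Bol018504* supplied nearly all transcript in wild-type leaves and was about 18.5-fold lower in *nwgl* leaves, while the other copies, scarce in the wild-type, were higher in *nwgl*. The FPKM of *Bol018504* was 114, 142 and 44.0 in wild-type (WT) replicates 1, 2 and 3, and 5.20, 5.09 and 5.97 in the *nwgl* replicates. The genotypes did not overlap, and the lowest wild-type library was still 7.36-fold above the highest *nwgl* library. Of all genes tested, 8.54% had every *nwgl* library below every wild-type library. On the log2(FPKM + 0.1) scale *Bol018504* differed by -4.02 (standard error 0.49), with a Benjamini-Hochberg adjusted p of 0.00242 in limma. Genes were called where the adjusted p was below 0.05 and the log2 fold change was 1 or more in either direction. By this rule 1190 of 24332 genes were called, which is 4.89%, with 1.2% lower and 3.69% higher in *nwgl*. *Bol018504* was called lower, and 60 of the tested genes had a more negative log2 fold change. In these whole leaves, fewer epidermal cells and less transcript per cell cannot be told apart.

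The FPKM of *Bol025251* was 0.855, 0.212 and 0.261 in WT replicates 1 to 3 and 1.41, 2.42 and 1.71 in the *nwgl* replicates. Each *nwgl* library lay above each wild-type library, but the nearest libraries, WT replicate 1 and *nwgl* replicate 1, differed by only 1.65-fold. Of all genes tested, 11.8% had every *nwgl* library above every wild-type library, so that lack of overlap in this direction was common. The means were 0.443 ± 0.358 and 1.85 ± 0.521 FPKM (SD, n = 3 each), and the log2 fold change of 2.0 (standard error 0.54) did not pass the threshold, with an adjusted p of 0.0728 from limma. Its unadjusted p in limma was 0.0045, and 16.2% of all genes tested had an unadjusted p below 0.05. It passed only when WT replicate 1 was left out, with a log2 fold change of 2.51 and an adjusted p of 0.0413 from limma. This copy was therefore higher in all 3 *nwgl* libraries without being called.

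*Bol025577* was almost undetected in wild-type leaves, with FPKM values of 0.0296, 0.0139 and 0.00731. Among genes above 0 in the same library, only 8.03%, 2.15% and 0.890% had a lower FPKM in wild-type replicates 1, 2 and 3. In the *nwgl* replicates it reached 1.36, 0.398 and 2.77 FPKM. The lowest *nwgl* library was 13.4-fold above the highest wild-type library, whereas the *nwgl* libraries themselves spread over a 6.98-fold range. It was called higher, with a log2 fold change of 3.46, a standard error of 0.67 and an adjusted p of 0.0202 from limma. Its mean was 0.017 ± 0.0115 FPKM in the wild-type and 1.51 ± 1.20 FPKM in *nwgl* (SD, n = 3 each), so that it entered the test only through the *nwgl* libraries, and with no filter on low values it was not called (adjusted p = 0.0571 from limma). With wild-type levels this close to 0, the fitted size depends on the pseudocount, being 1.19 with 1 and 5.51 with 0.01, and at a pseudocount of 1 the gene was not called (adjusted p = 0.0819 from limma). The call was also lost when WT replicate 1, 2 or 3 or *nwgl* replicate 1 was left out, with adjusted p values of 0.0719, 0.0627, 0.0517 and 0.0998 from limma.

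**Figure D1:**
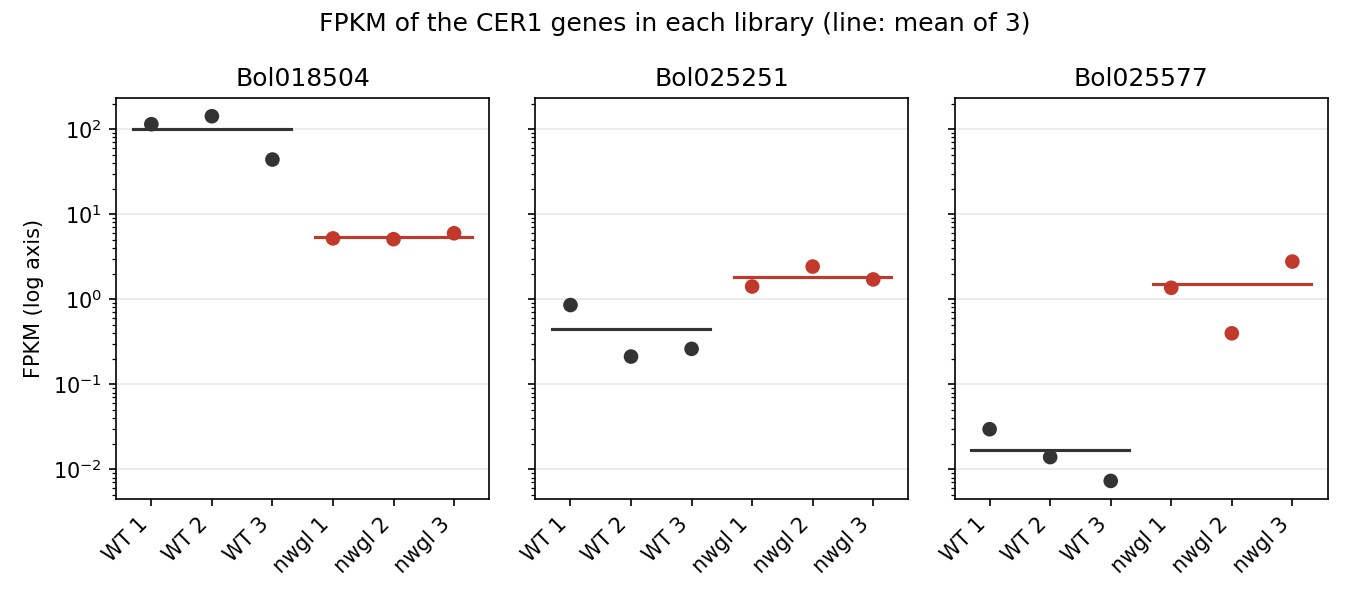
FPKM (log axis) of *Bol018504*, *Bol025251* and *Bol025577* in the 3 wild-type (WT, dark) and 3 *nwgl* (red) libraries, with each point a library and each line the mean of a genotype. *Bol018504* falls from between 44.0 and 142 to between 5.09 and 5.97, and both other copies lie higher in every *nwgl* library than in any wild-type library.

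The composition of the transcript pool of these 3 copies differed between the genotypes in every library. Any other CER1 homologs were not included in the sum. *Bol018504* made up 99.2%, 99.8% and 99.4% of the summed CER1 FPKM in WT replicates 1 to 3, and 65.2%, 64.3% and 57.1% in the *nwgl* replicates. It thus stayed the most abundant copy in every library. The difference in its share was -37.3 percentage points (standard error 2.56), the genotypes did not overlap, and an exact two-sided permutation test gave p = 0.1, the smallest value that 3 libraries against 3 allow. The study chose these genes on the same libraries, so the tests of the share, the ratios and the sum are not independent evidence. A share within a library does not change when that library is scaled by any factor, so that differences in depth between libraries do not enter it.

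The share of *Bol025251* lay between 0.149% and 0.741% in wild-type leaves and was 17.7%, 30.7% and 16.4% in the *nwgl* replicates. That of *Bol025577* was at most 0.0257% in wild-type leaves and was 17.1%, 5.03% and 26.5% in the *nwgl* replicates. The ratio between these minor copies differed between the genotypes, but its wild-type values rest on FPKM of *Bol025577* close to 0. This copy also passed the filter on low values only through its *nwgl* libraries. *Bol025577* reached only 0.0347, 0.0657 and 0.0280 times the FPKM of *Bol025251* in WT replicates 1 to 3, against 0.966, 0.164 and 1.62 times in the *nwgl* replicates. The log2 ratio of *Bol025577* to *Bol025251* was -4.65 ± 0.64 in the wild-type and -0.65 ± 1.73 in *nwgl* (SD, n = 3 each), without overlap (exact two-sided permutation p = 0.1, the smallest possible). Within the *nwgl* libraries these copies did not differ beyond their spread. *Bol025251* was higher in 2 of 3, and an exact paired permutation test gave p = 0.75, where 0.25 is the smallest value it can give.

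The other ratios between the copies differed by more. *Bol018504* stood 134 to 671 times above *Bol025251* in wild-type leaves and 2.10 to 3.68 times above it in *nwgl* leaves. Against *Bol025577* it stood 3863 to 10199 times higher in the wild-type, ratios that rest on values of *Bol025577* close to 0, and 2.15 to 12.8 times higher in *nwgl*. In each case the exact two-sided permutation test gave p = 0.1, and over the 5 values compared in this way (the summed level, the share and the 3 ratios) the Benjamini-Hochberg adjusted p was 0.1 for every one.

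**Figure D2:**
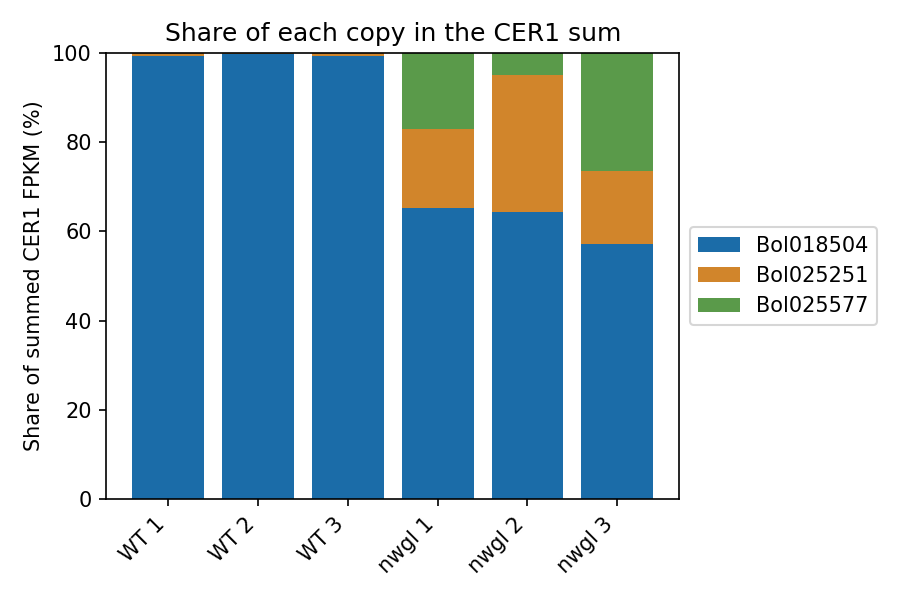
Share of each copy in the summed CER1 FPKM (vertical axis, %) for each of the 3 wild-type (WT) and 3 *nwgl* libraries (horizontal axis), stacked to 100%. *Bol018504* fills at least 99.2% of every wild-type bar and between 57.1% and 65.2% of the *nwgl* bars, and the rest is divided differently between the other copies in each *nwgl* library.

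The rank of a gene within its library also does not depend on scaling. Among the 31497 genes listed, *Bol018504* ranked 328, 133 and 304 by FPKM in WT replicates 1 to 3, within the top 1.04% of each library. In the *nwgl* replicates it ranked 7707, 9969 and 6331. A total of 150 genes ranked 328 or higher in every wild-type library, and *Bol018504* was the only 1 of them that ranked 6331 or lower in every *nwgl* library. These limits were set from its own ranks after the values had been seen. Of the 150, 21 ranked lower in every *nwgl* library than in any wild-type library. In the reverse direction, 190 genes ranked 328 or higher in every *nwgl* library, and 1 of them ranked 6331 or lower in every wild-type library. Of the 293 genes called lower in *nwgl*, *Bol018504* had the largest fall in mean FPKM. Such a fall is bounded by the wild-type level, and only 2 of the 293, itself included, had a wild-type mean at least as high.

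*Bol025251* moved from ranks 16781, 21817 and 19971 in WT replicates 1 to 3 to 15051, 13858 and 13757 in the *nwgl* replicates. In WT replicates 1 to 3, 46.7%, 30.7% and 36.6% of the listed genes ranked below it, against 52.2% to 56.3% in the *nwgl* replicates. *Bol025577* moved further, from ranks 25373, 25586 and 24374 to 15220, 20482 and 11048. In *nwgl* replicate 3, where it ranked highest, it lay above *Bol025251*, and in *nwgl* replicate 2 it lay well below it. All 3 copies ended among moderately or weakly expressed genes in *nwgl* leaves, whereas in the wild-type *Bol018504* was among the most highly expressed genes of the leaf.

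**Figure D3:**
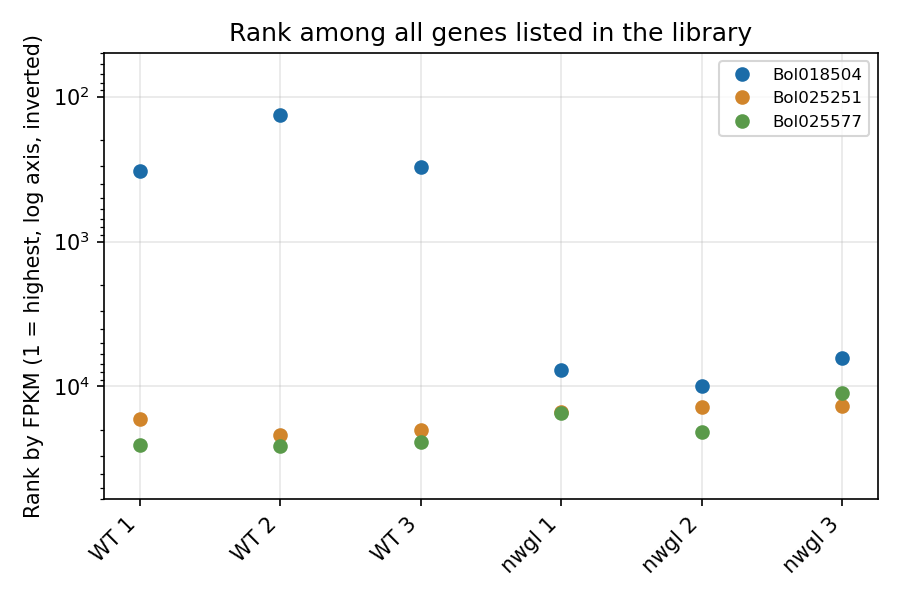
Rank by FPKM (1 is the highest, log axis, inverted) of each CER1 copy among the 31497 genes listed, for the 3 wild-type (WT) and 3 *nwgl* libraries, with each point a library. *Bol018504* drops from ranks 133 to 328 to ranks 6331 to 9969, and lies closer to the other copies in *nwgl* than in the wild-type.

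The copies that were higher made up for very little of the fall of *Bol018504*. Summed over the 3 copies, CER1 FPKM was 115, 142 and 44.2 in WT replicates 1 to 3 and 7.97, 7.91 and 10.5 in the *nwgl* replicates. The lowest wild-type sum was 4.23-fold above the highest *nwgl* sum. The means were 101 ± 50.6 and 8.78 ± 1.45 FPKM (SD, n = 3 each), so that *nwgl* leaves held 8.73% of the wild-type mean. On the log2 scale the sum differed by -3.37 (standard error 0.54, exact two-sided permutation p = 0.1, the smallest possible).

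In mean FPKM, *Bol018504* fell by 94.7 (standard error 29.2), *Bol025251* was higher by 1.41 (standard error 0.365) and *Bol025577* by 1.49 (standard error 0.690). The joint rise of 2.90 FPKM was 3.06% of the fall, of which *Bol025251* contributed 1.48% and *Bol025577* 1.58%. Over the 9 pairs of a wild-type and an *nwgl* library this percentage ran from 1.73% to 11.1%. Even the largest rise found between any libraries, 4.26 FPKM, came to only 11.2% of the smallest fall, 38.0 FPKM. These are transcript levels, and neither protein nor enzyme activity was measured in these libraries.

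**Figure D4:**
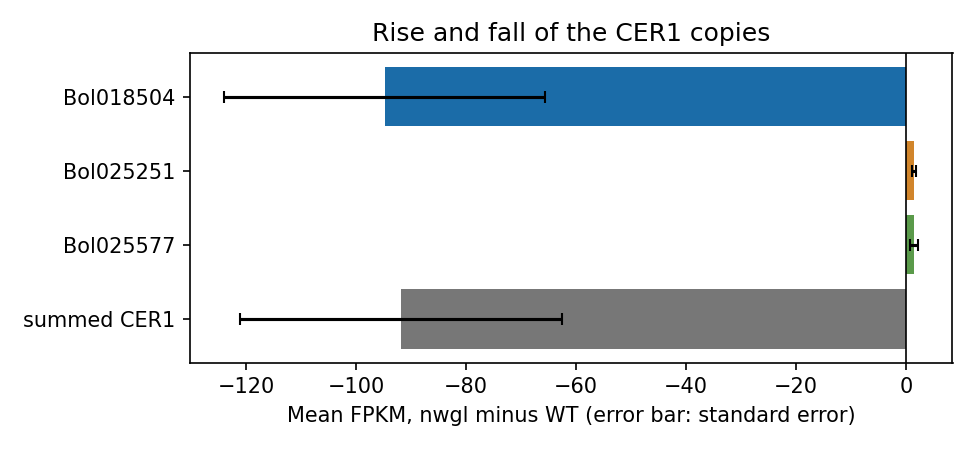
Difference of mean FPKM, *nwgl* minus wild-type (horizontal axis, linear), for each CER1 copy and for their sum, with bars for the difference between the means of 3 libraries each and error bars for its standard error. The bar of *Bol018504* extends to -94.7, those of *Bol025251* and *Bol025577* reach 1.41 and 1.49, and the sum is therefore almost that of *Bol018504* alone.

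Libraries of a genotype differed among themselves. WT replicate 3 had the lowest level of *Bol018504* in its genotype, and it was also the library of the lowest relative depth. A link between level and depth was not tested. Relative to WT replicate 1, depth ranged from 0.893 to 1.02, as read from the recurring ratios of low values. The summed FPKM of a library ranged from 291844 to 451537, and the 10 most abundant genes took from 22.7% to 57.3% of it. With median-of-ratios scaling, which evens out such differences, *Bol018504* had scaled values of 111, 114 and 55.5 in WT replicates 1 to 3 and 5.74, 4.04 and 6.82 in the *nwgl* replicates. The genotypes remained apart, and the log2 fold change was -4.02 as on the deposited values.

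The CER1 copies are related genes, and how fragments that match several of them were assigned is not given in the sources used here. Within the wild-type, the highest FPKM of *Bol018504* (replicate 2) occurred together with the lowest of *Bol025251*, whereas its lowest (replicate 3) occurred together with the lowest of *Bol025577* and with less *Bol025251* than in replicate 1. In *nwgl*, both minor copies were higher while *Bol018504* was lower. These values do not show how fragments were assigned, and a spill of *Bol018504* fragments onto the other copies was not tested.

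The other 6 wax genes that the study names were compared as a list. The study chose them on these libraries, where it reported *Bol013612* as lower and the others as higher with DESeq rather than limma. Their directions are therefore not independent evidence. In *nwgl*, 3 of 6 were called higher, none was called lower by limma and 3 were not called. The shares over all genes tested were 3.69% called higher and 1.2% called lower. *Bol013612* had an unadjusted p of 0.0056 from limma in the lower direction, and no other gene of the list had a negative fold change. The median log2 fold change of the list was 2.49 against -0.04 for all genes tested. In the alcohol-forming branch, the fatty-acyl-CoA reductase gene *Bol036039* rose from 0.0434, 0.0143 and 0.0399 FPKM in WT replicates 1 to 3 to 16.0, 29.7 and 19.6 in the *nwgl* replicates. Its wild-type mean was 0.0325 FPKM, so that *Bol036039* entered the test only through the *nwgl* libraries. With no filter on low values it was also called (adjusted p = 0.00555 from limma). The reductase gene *Bol035700* rose from 1.01, 0.971 and 0.849 to 12.4, 22.3 and 18.7. Both stood above all 3 CER1 copies in each *nwgl* library, while in each wild-type library *Bol018504* stood above all 6 genes of the list.

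The CER4 gene *Bol013612* encodes the reductase that makes primary alcohols. Every *nwgl* library lay below every wild-type library for it, as for *Bol018504* and for 8.54% of all genes tested. The nearest libraries differed by 1.48-fold, against 7.36-fold for *Bol018504*. The FPKM of *Bol013612* was 26.3, 29.5 and 6.06 in WT replicates 1 to 3 and 3.80, 3.79 and 4.09 in the *nwgl* replicates, with the lowest wild-type value again in replicate 3. Its log2 fold change was -2.08 (adjusted p = 0.0836 from limma) and was not called, although without WT replicate 3 it was, at -2.81 (adjusted p = 0.00637 from limma) and it was also called with median-of-ratios scaling, quantile normalization and a common total (adjusted p = 0.0424, 0.0356 and 0.0490 from limma). Among the AP2-like transcription factor genes, *Bol038193* was called higher, at 0.341, 0.216 and 0.255 FPKM in the wild-type and 1.75, 3.51 and 1.98 FPKM in *nwgl*, but not without *nwgl* replicate 2 (adjusted p = 0.0565 from limma). The factor *Bol038557* (log2 fold change 1.91, adjusted p = 0.0714 from limma) and the 3-ketoacyl-CoA synthase gene *Bol024192*, of the family that elongates fatty acids (log2 fold change 2.26, adjusted p = 0.167 from limma), were not called. On the same alternative scalings *Bol038557* was called (adjusted p = 0.0259, 0.0321 and 0.0267 from limma), and *Bol024192* was called only without WT replicate 2 (adjusted p = 0.0459 from limma). CER3, cytochrome b5 and mid-chain alkane hydroxylase genes were not analysed here, since no table used here pairs their names with the identifiers.

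**Figure D5:**
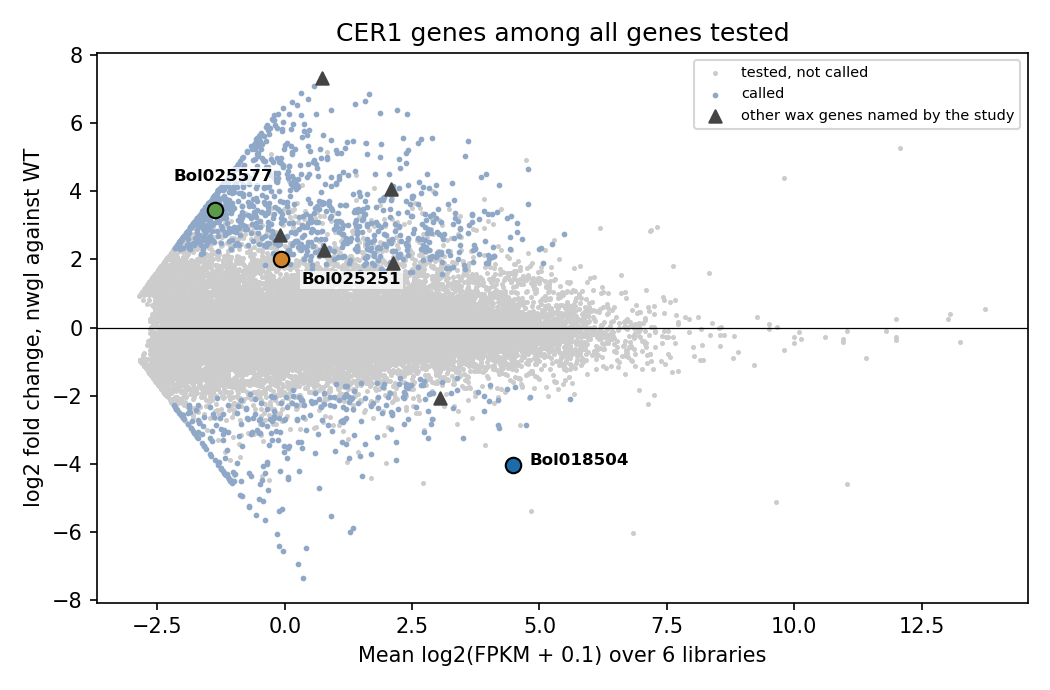
Log2 fold change of *nwgl* against wild-type plotted against the mean log2(FPKM + 0.1) over 6 libraries for 24332 genes (blue: called), with the CER1 copies as large circles and the other 6 wax genes as triangles. *Bol018504*, at -4.02, lies below almost all genes of its level, while *Bol025577*, at 3.46, sits close to the edge formed by genes that are near 0 in wild-type leaves.

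Genes with a profile most like that of each copy were sought among annotated genes whose mean FPKM was 1 or more. Likeness was the root mean square difference of centred log2(FPKM + 0.1) over the 6 libraries. The genes with the smallest differences were taken, so values below the median of all genes compared follow from the search. For *Bol018504* the nearest of 15871 genes was *Bol043790*, with a difference of 0.35 against a median of 2.07 over all genes compared. Its FPKM was 2.25, 3.57 and 1.51 in WT replicates 1 to 3 and was listed at 0, 0 and 0.0156 in the *nwgl* replicates. The next was *Bol019893*, also with a difference of 0.35, at 5.34, 3.24 and 1.17 FPKM in the wild-type and 0.0456, 0.0329 and 0.0414 FPKM in *nwgl*. Both were expressed far below *Bol018504* and were close to 0 in *nwgl* leaves, where the pseudocount sets the fitted size. Both reached the minimum mean FPKM for this search only through the wild-type libraries. The log2 fold change of *Bol043790* was -4.52 with a pseudocount of 0.1, -7.40 with 0.01 and -1.73 with 1, against -4.02, -4.05 and -3.82 for *Bol018504*, so that this likeness depends on the pseudocount.

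For *Bol025251* the nearest gene was *Bol023837*, with a difference of 0.32 against a median of 1.23. Its FPKM was 17.5, 6.53 and 5.28 in WT and 22.0, 30.2 and 20.2 in *nwgl*. Like *Bol025251*, it was highest among the wild-type libraries in replicate 1 and was not called (log2 fold change 1.48, adjusted p = 0.151 from limma), except without WT replicate 1 (adjusted p = 0.0413 from limma) or with quantile normalization (adjusted p = 0.0481 from limma). For *Bol025577* the nearest gene was *Bol031300*, with a difference of 0.38 against a median of 2.02. Its FPKM was 0.0733, 0.114 and 0.0572 in the wild-type and 2.53, 1.10 and 2.91 in *nwgl*, where replicate 2 was lowest for both genes. *Bol031300* reached the minimum mean FPKM for this search only through the *nwgl* libraries. Each nearest gene was picked for its likeness over these same libraries, so the traits it shares with the copy are not independent evidence. The files do not pair these identifiers with names.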

How the data were processed

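For the 6 directional libraries the authors used HISAT2 for alignment against Bolbase V1.0 and StringTie 1.3.1 for assembly, and deposited 1 FPKM value per gene and library. Genes at 0 in every library are not listed. The deposited lncRNA table holds none of the CER1 genes and was not used. Counts were not analysed here, so limma 3.58.1 in R 4.3.3 was fitted to log2(FPKM + 0.1) of the 24332 genes whose mean FPKM reached 0.1 (lmFit, eBayes with trend). With 3 libraries against 3, precision rests on the replicates. Python 3.11.15 and scipy 1.17.1 gave the exact permutation tests.

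Alternatives were pseudocounts of 1 and 0.01, quantile normalization, no filter or a minimum mean FPKM of 1, scaling by median of ratios or to a common total, eBayes without trend or robust (statmod 1.5.0), the replicate number as a block, medians for means, and leaving out each library. Named genes are the 3 copies, the study's other 6 wax genes and the nearest profiles (2 for *Bol018504*, 1 for each other copy). The members and lists were chosen with earlier results of these data known. Ratios between copies, rank limits, the rise of each copy alone and the spread within genotypes were added after the values were seen.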

Additional observations from a re-analysis of the deposited data

How the results depend on the processing

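*Bol018504* was called lower under all 10 alternatives that kept every library, with log2 fold changes from -4.05 to -3.82, and in the 6 refits lacking 1 library each (-4.53 to -3.69). *Bol025251* was called under none of the 10 (adjusted p in limma from 0.0536 to 0.164), and its log2 fold change ran from 1.70 to 2.51 with a library left out. *Bol025577* was called under 7 of the 9 alternatives that tested it, not with a pseudocount of 1 (1.19) or with no filter on low values (3.46, adjusted p = 0.0571 in limma), and in 2 of the 6 leave-one-out fits (2.87 to 4.14). The number of genes called fell from 1190 to 777 with a pseudocount of 1, 761 with no filter and 735 with a minimum mean FPKM of 1, rose to 1583 with quantile normalization, 1527 with median-of-ratios scaling and 1315 with a common total, and ran from 403 to 1327 with a library left out (588 without WT replicate 1, 403 without *nwgl* replicate 1 and 520 without *nwgl* replicate 2). The median log2 fold change of all genes, -0.04 in the main fit, was -0.103 with quantile normalization and 0.053 with a common total. With a library left out it ran from -0.189 (without *nwgl* replicate 2) to 0.120 (without WT replicate 2). The log2 difference of the summed CER1 level stayed between -3.85 and -3.27 (left out: -3.88 to -3.04). The difference in the share of *Bol018504* stayed between -37.3 and -35.1 percentage points (left out: -38.8 to -34.7), and the rise over the fall between 2.56% and 4.91% (left out: 2.28% to 3.77%). The cause of these shifts was not tested. Same-numbered libraries of the genotypes had correlations of their deviations of -0.02, 0.11 and 0.16, and unlike-numbered ones ran from -0.21 to 0.11. Whether the numbers pair the libraries cannot be told from these values, and the main fit did not pair them. With the replicate block 1314 genes were called, and the calls of the 3 copies were unchanged.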

Other observations

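The level of *Bol018504* was far more even among *nwgl* libraries than among wild-type libraries on the deposited values, with coefficients of variation of 8.90% and 50.5% (n = 3 each). *Bol013612*, the CER4 gene, had 4.35% and 61.7%. A spread at least as wide in the wild-type and as narrow in *nwgl* was found in 1.35% of 17374 genes whose mean FPKM was 1 or more for *Bol018504*, and in 0.178% for *Bol013612*. With median-of-ratios scaling the *nwgl* coefficients became 25.3% and 21.5%, the wild-type ones 35.4% and 52.0%, and 23.8% and 9.45% of the genes matched them. The *nwgl* values of both genes were thus less even after this scaling, and WT replicate 3 stayed their lowest wild-type library, whereas after quantile normalization the lowest for *Bol018504* was WT replicate 1.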
